A study of Mus musculus with 34 samples.

Results

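The genes described here mark granulosa cells or carry their response to follicle-stimulating hormone (FSH). They are Fshr, Foxl2, Amh, Amhr2, Esr2, Nr5a1, Nr5a2, Gata4, Wt1 and Kitl, and they were chosen by name: 10 of the 25965 entries of the count table, each found once. Their RNA was measured in cumulus cells (CCs), the granulosa cells around the oocyte, in 34 libraries of C57BL/6J female mice aged 8 weeks at the start. In the diet-induced obesity (DIO) protocol mice ate chow diet (CD, 11% of energy from fat) or high-fat diet (HFD, 58%) for 4 weeks (5 CD, 5 HFD libraries) or 16 weeks (6 CD, 7 HFD), with 3 further libraries from mice that gained little weight on HFD for 16 weeks, called low gainers here. In the leptin protocol mice had intraperitoneal saline (16 C, 3 libraries) or 100 µg of leptin per day (16 L, 5 libraries), given at 09:00 and 21:00 for 16 days. All females were superovulated, so that every group had received gonadotropins, and each library came from about 50 CCs. The labels give 1 cumulus-oocyte complex as the source of these cells. Nothing in the labels ties a library to a litter or a preparation day, so p-values measure the spread between these libraries.

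FSH binds its receptor FSHR on granulosa cells, and the receptor raises cyclic AMP through the G protein Gs, which activates protein kinase A and the transcription factor CREB. Granulosa cells of growing follicles answer with aromatase, inhibins and, before ovulation, the luteinising hormone receptor, and Fshr itself is known to decline once ovulation has been triggered. FOXL2, GATA4, WT1, ESR2 and the related nuclear receptors NR5A1 and NR5A2 are transcription factors of granulosa identity or steroid synthesis. Anti-Müllerian hormone (AMH) is made by granulosa cells of small growing follicles and acts through AMHR2, and KIT ligand (encoded by Kitl) binds KIT on the oocyte.

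The RefSeq promoters (GRCm38.p6, 250 bases before and 50 after the start of the gene) covered 6 members in 7 windows. They were searched on both strands for the letters AAGGTCA, a site that receptors of the NR5A family bind, and for CACGTG, known as the E-box. The search also took in AGATAA, a site of GATA factors, then GTAAACA, read by forkhead proteins such as FOXL2, and TGACGTCA, the cyclic AMP response element, and 4 windows held a match. The promoters of Fshr and Amhr2 are printed whole because Fshr passed the test between diets at 4 weeks and Amhr2 the one between low gainers and other mice on HFD, with the matches in capitals. The window of Fshr lies on the minus strand of chr17:89200626-89200925, with the E-box starting 61 bases before the gene's start. The window of Amhr2 lies on the plus strand of chr15:102445117-102445416, with the NR5A site starting 231 bases before the start.
Fshr: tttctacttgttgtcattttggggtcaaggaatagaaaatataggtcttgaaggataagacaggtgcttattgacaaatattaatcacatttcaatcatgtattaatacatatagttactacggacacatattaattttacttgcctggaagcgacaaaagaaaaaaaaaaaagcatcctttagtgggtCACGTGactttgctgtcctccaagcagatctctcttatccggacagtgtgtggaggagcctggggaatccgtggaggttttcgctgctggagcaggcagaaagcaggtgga
Amhr2: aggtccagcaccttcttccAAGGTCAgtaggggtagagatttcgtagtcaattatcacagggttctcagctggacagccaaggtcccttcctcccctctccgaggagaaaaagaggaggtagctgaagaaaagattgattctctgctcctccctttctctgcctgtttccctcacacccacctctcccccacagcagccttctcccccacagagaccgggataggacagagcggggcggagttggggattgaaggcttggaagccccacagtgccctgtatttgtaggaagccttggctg
For comparison, the stretches around the other matches come from the minus-strand windows chr12:76177210-76177509 (Esr2, E-box 72 bases before the start) and chr1:136960399-136960698 (Nr5a2, GATA sites read on the opposite strand, starting 217 and 200 bases before the start).
Esr2: ggtttgtggtCACGTGggcttctcag
Nr5a2: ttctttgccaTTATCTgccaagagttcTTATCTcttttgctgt
Of 32851 RefSeq promoter windows of this length, 7.15% held the E-box, 4.72% the NR5A site and 11.2% the GATA site. The forkhead site (3.65% of windows) and the cyclic AMP response element (1.79%) had no match in the 7 windows. A match describes these letters only.

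Libraries held 1104611 to 13207018 counted reads, with a median of 4035575.5, and the levels below are counts scaled to a common depth (CPM) after normalisation by the trimmed mean of M values, called normalised CPM. Cumulus and granulosa marker genes were detected in every group, 11 of 11, at summed levels of 2443 to 26421 RPM (reads scaled to the library's total). In the leptin protocol these sums were 11385 to 26421 RPM in 16 C (median 12873) and 2443 to 11593 in 16 L (median 4857). The lowest group median was that of 4-week CD, at 4122 RPM. Libraries that stood apart bear on some results. 16 L replicate 18 held 29788 RPM of 6 oviduct epithelium markers and 14513 RPM of 5 red blood cell markers, 16 L replicates 20 and 21 held 1446 and 2242 RPM of the former, and the median in 16 C was 27.6 RPM. Red blood cell markers also summed to 7605 RPM in 16 L replicate 21, and macrophage markers to 1345 and 1528 RPM in replicates 20 and 23, against 5.30 to 35.7 and 65.8 to 434 RPM in 16 C. In 4-week HFD replicate 5 the oocyte markers summed to 403 RPM, with a group median of 10.4. The 16-week CD replicates 1 and 2 shared high levels of several members, described below. They also had the highest normalisation factors of their group, a value taken over the whole library. These were 1.37 and 1.33, against 0.761 to 0.989 in the rest of the group.

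Every member was detected, and 8 of 10 had reads in at least 33 of the 34 libraries. Per kilobase of exon, the median level over the 34 libraries was highest for Amhr2 (10.2 CPM per kb), Nr5a1 (9.69) and Nr5a2 (9.41), then Esr2 (6.69), Fshr (4.39), Gata4 (4.19), Kitl (2.41) and Foxl2 (2.10). Wt1 (0.337) and Amh (0.113) were the lowest, and Amh had 211 reads in all, found in 18 libraries. Gata4 was missing from 1 library and Wt1 from 4. With the groups ordered by mean level, neighbouring groups overlapped for each of the 10 genes. Within groups the spread of log2 levels (SD) was 1.52 for Gata4, 1.48 for Amh and 1.43 for Wt1, against 0.63 for Nr5a2 and a median of 0.66 over 13236 genes. One antisense entry, 4933433P16Rik, overlaps Nr5a1 and held 30 reads, and whether counting used the strand is not given in the sources used here.

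**Figure D1:**
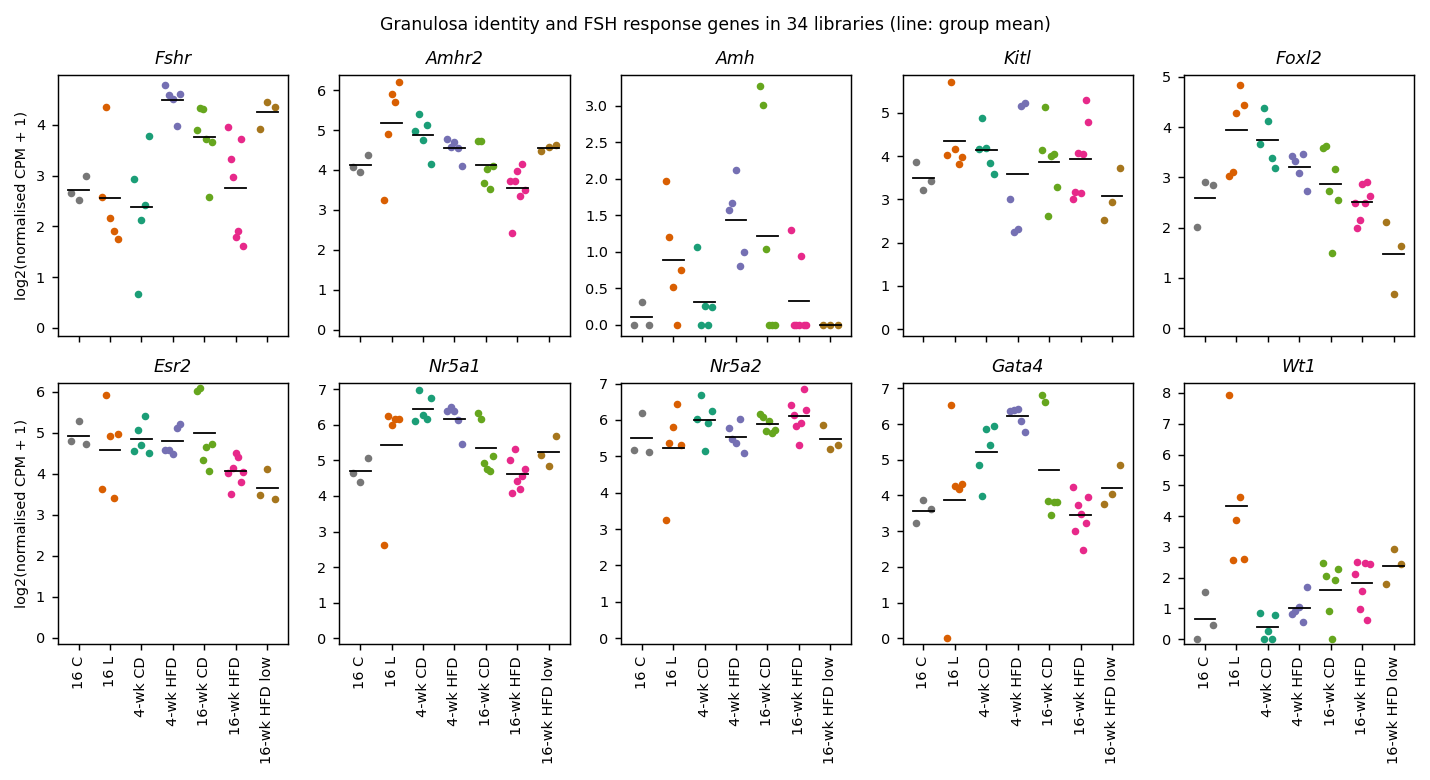
Levels of the 10 genes in each library, as log2(normalised CPM + 1), by group, with 1 point per library and a line at the group mean. Fshr lay higher in all 5 4-week HFD libraries than in any 4-week CD library, and 2 16-week CD libraries stood apart for Gata4 and Amh.

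Fshr was the 1 member called higher after 4 weeks of HFD. The 5 HFD libraries held 14.7, 23.4, 26.6, 23 and 21.8 CPM, and the 5 CD libraries 12.7, 6.66, 0.597, 3.39 and 4.32 CPM. All 5 HFD values lay above all 5 CD values, the lowest of which rested on 1 read. The mean was 21.9 ± 4.40 CPM (SD, n = 5) against 5.54 ± 4.57 (n = 5), a 3.66-fold difference and a log2 fold change of 1.87 (SE 0.418, 95% interval 0.986 to 2.76, edgeR adjusted p = 0.0281). Of 8 members tested Fshr was the 1 called, against 4.26% of the 11727 genes tested (1.19% higher). Non-overlapping groups with HFD higher occurred in 2.87% of genes. The call was lost in 6 of 10 fits that left out 1 library (CD replicate 7 or 8, HFD replicate 3, 4, 5 or 14), with log2 fold changes of 1.72 to 1.89 and adjusted p of 0.0515 to 0.0961. Depth moved with this comparison: totals were 3945350 to 12641896 reads in HFD and 1363065 to 6608945 in CD, and over the 34 libraries Fshr CPM and total reads had a rank correlation of 0.53 (a description, since both are read from the same libraries). The part of depth in the result was not tested.

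Fshr did not follow the same course at 16 weeks. Its level ran from 4.97 to 19.1 CPM (median 13) in the 6 CD libraries, and from 2.07 to 14.6 CPM (median 6.88) in the 7 HFD libraries. The groups overlapped, with 3 HFD libraries below every CD library, and the log2 fold change of -0.87 (SE 0.448, 95% interval -1.82 to 0.07) missed the threshold (edgeR adjusted p = 0.225). The change in HFD effect between 4 and 16 weeks was tested as an interaction over the 23 DIO libraries, low gainers left out, and it was -2.67 on the log2 scale (SE 0.651, 95% interval -4.00 to -1.33, edgeR adjusted p = 0.0287). Fshr and Gata4 were the 2 of 9 members called in that test, against 3.66% of 12235 genes (1.92% lower). The Fshr interaction lost its call in 7 of 23 fits without 1 library (16-week CD replicate 2, 4-week CD replicate 1, 2 or 8, 4-week HFD replicate 3, 4 or 5), at adjusted p of 0.0507 to 0.0586, and without both 16-week CD replicates 1 and 2 it was -2.52 (adjusted p = 0.0661). In the low gainers Fshr held 14.2, 20.9 and 19.6 CPM, 2 of which lay above all 7 HFD libraries. This difference, a log2 fold change of 1.23 (SE 0.446), missed the threshold (edgeR adjusted p = 0.0592).

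In the leptin protocol Fshr held 5.31, 4.74 and 6.95 CPM in 16 C and 4.96, 19.4, 3.49, 2.76 and 2.37 CPM in 16 L. The single high library was 16 L replicate 19, and 3 of 5 16 L libraries lay below every 16 C library. The log2 fold change was 0.26 (SE 0.767, 95% interval -1.45 to 1.98, edgeR adjusted p = 0.839), an interval that leaves changes of either sign.

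Fshr was also set against Lhcgr, the luteinising hormone receptor, as a log2 ratio of counts within each library (0.5 added to each count). Such a ratio needs no scaling between libraries. The mean log2 ratio was -2.24 ± 0.417 (SD, n = 5) in 4-week CD and -0.68 ± 0.307 (n = 5) in 4-week HFD. All 5 HFD ratios lay above all 5 CD ratios, and the difference of 1.56 gave an exact two-sided permutation p of 0.00794, the smallest that 5 against 5 allows, or 0.0794 after adjustment over the 10 ratio tests computed. At 16 weeks the ratio was -0.96 ± 0.720 in CD (n = 6) and -2.18 ± 1.12 in HFD (n = 7), a difference of -1.22 in the opposite direction with overlap (exact permutation p = 0.0455, adjusted 0.114). None of the 10 ratio tests passed after adjustment.

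**Figure D2:**
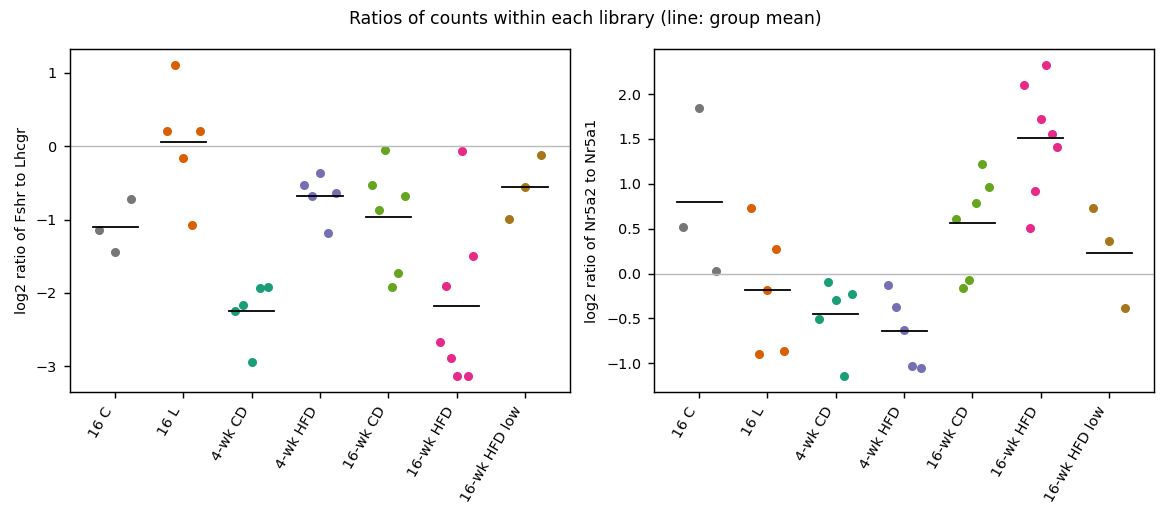
Log2 ratio of Fshr to Lhcgr counts and of Nr5a2 to Nr5a1 counts within each library, by group, with lines at group means. The Fshr to Lhcgr ratios of 4-week HFD lay between -1.19 and -0.37 and those of 4-week CD between -2.94 and -1.92.

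Genes downstream of the receptor were called in the 4-week comparison, which called 4.26% of all genes, and in the interaction, which called 3.66%. Of 18 genes of FSH signal transduction, all tested at 4 weeks, 0 were called higher and 2 lower, Adcy6 (18.1 ± 5.73 CPM in CD and 7.52 ± 1.92 in HFD, n = 5 each), an adenylyl cyclase, and Adrbk1 (39.9 ± 16.6 and 15.0 ± 5.83), a kinase that desensitises G protein-coupled receptors. The list's median log2 fold change was 0.00, and that of all genes was -0.01. Of 14 FSH-responsive genes, 13 were tested and 0 called by edgeR (4 at unadjusted p under 0.05, a mark that 24.3% of all genes reached), with a median of 0.44. In the interaction 3 of 14 were called: Hsd17b1, an oestrogen-synthesis enzyme, with -1.74, Scarb1, a lipoprotein receptor for cholesterol uptake, with -2.34, and Inhbb, an inhibin and activin subunit, with 1.46. The 16-week comparison called 0 of 18 and 0 of 14 (3 and 4 at unadjusted p under 0.05), and the leptin comparison the same (4 of 18 and 3 of 13 tested).

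Amhr2, the receptor that binds AMH, was the 1 member that edgeR called between the low gainers and the other mice on HFD for 16 weeks. The low gainers held 21.3, 22.7 and 23.7 CPM, and the 7 HFD libraries ran from 4.34 to 16.7 CPM (median 12.1). The 3 low gainers lay close together and above all 7, a pattern that 11.5% of genes showed. Its log2 fold change was 0.94 (SE 0.296, 95% interval 0.323 to 1.57, edgeR adjusted p = 0.0326), a 1.92-fold difference. Of the 9 members tested, 7 reached unadjusted p under 0.05, a mark whose share of all genes is not given here. Amhr2 was the 1 of 9 called, in a comparison that called 20.7% of 11258 genes (10.8% higher). The share of members called was thus no higher than that of all genes. The call was lost without HFD replicate 14 or 16 or without any 1 of the 3 low gainers (adjusted p of 0.0538 to 0.132), and in the fit of all 34 libraries (adjusted p = 0.157). The same low gainers compared with 16-week CD (10.5 to 25.6 CPM, median 15.7) overlapped, with a log2 fold change of 0.35 (SE 0.346, edgeR adjusted p = 0.740), and that comparison called 0 of 9 members (2 at unadjusted p under 0.05, against 11.2% of genes) and 0.00861% of all genes by adjusted p. The 16-week HFD and CD libraries differed by -0.63 (SE 0.319, adjusted p = 0.221). These 3 comparisons share libraries in pairs.

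Genes of the FSH pathway were called in both directions between low gainers and HFD, a comparison that called 20.7% of all genes, so that the 3 calls of 18 in signal transduction were no larger a share. Of these 18, 2 were higher and 1 lower: Adcy3, an adenylyl cyclase (52.6 ± 22.2 CPM in HFD, n = 7, and 171 ± 35.2 in low gainers, n = 3), Arrb2, a receptor-desensitising arrestin (2.99 ± 1.40 and 9.93 ± 3.07), and the lower Creb1, encoding CREB (60.7 ± 20.2 and 28.0 ± 6.67). Of 14 FSH-responsive genes, 2 were higher and 2 lower. The higher ones were Cyp11a1, which starts steroid synthesis from cholesterol (1862 ± 451 and 4625 ± 335 CPM), and Scarb1 (146 ± 34.9 and 363 ± 68.7), and the lower ones were the inhibin and activin subunits Inhba (328 ± 83.3 and 160 ± 35.0) and Inhbb (37.1 ± 11.9 and 20.3 ± 3.60). Their medians of 0.08 and -0.14 stood beside -0.03 for all genes.

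At 4 weeks Amhr2 held 22.5, 16.1, 26.3, 23 and 24.9 CPM in HFD and 16.7, 30.7, 41.2, 25.9 and 33.8 in CD. The ranges overlapped, and the log2 fold change was -0.41 (SE 0.262, edgeR adjusted p = 0.346). In 16 L it held 8.55, 28.7, 58.5, 51.0 and 72.7 CPM, against 15.9, 14.5 and 19.7 in 16 C. Only replicate 18 of the 5 16 L libraries fell below the controls, and the other 4 lay above all of them. At a log2 fold change of 1.38 (SE 0.608) it missed the threshold (edgeR adjusted p = 0.149), and without replicate 18 it was 1.57 (adjusted p = 0.00692), in a fit that called 41.8% of all genes.

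Amh had too few counts for the filter in every comparison, so it was tested by exact permutation of mean log2(RPM + 1), 1 of 6 such tests. In 4-week HFD it had 8, 14, 16, 10 and 16 reads, and in 4-week CD 1, 8, 0, 1 and 0 reads. Every HFD library had reads, and 2 of 5 CD libraries had none, with 3 HFD libraries above the highest CD library in CPM. The difference was 1.21 (two-sided exact permutation p = 0.0238, smallest possible 0.00794, adjusted over the 6 tests 0.143). A neighbouring gene on the same strand, Sf3a2, ends 323 bases before Amh starts, and it was looked at after the values were seen. Sf3a2 held 12.8 ± 7.51 CPM in 4-week HFD and 12.9 ± 2.58 in 4-week CD (n = 5 each). Within 4-week HFD the 2 genes were low in the same libraries: replicates 13 and 14 held 5.11 and 4.66 CPM of Sf3a2 and 0.743 and 1.00 of Amh, and replicates 3, 4 and 5 held 20.9, 18.2 and 15.3 of Sf3a2 and 1.98, 2.19 and 3.35 of Amh. The part of this neighbour in the Amh counts was not tested.

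In 16-week CD, Amh had 36 and 52 reads in replicates 1 and 2, 6 in replicate 5 and none in the others. Those replicates also held the most Sf3a2 reads of the group, 46 and 70, against 0 to 7 in the rest. 16-week HFD had 8 Amh reads in 2 of 7 libraries, and the 3 low gainers had 0 reads, which allows up to 3 counts in a library by counting error. Neither difference passed (exact permutation p = 0.233 and 0.533). In 16 L Amh had 17, 13, 1, 0 and 2 reads and in 16 C 0, 2 and 0, a difference of 0.88 (exact permutation p = 0.107, smallest possible 0.0179). Of the 14 genes of AMH and BMP signal transduction, 13 were tested in the leptin comparison and 1 was called: Id2, a BMP target and inhibitor of basic helix-loop-helix factors, fell from 1484 to 3072 CPM in 16 C (n = 3) to 96.0 to 522 CPM in 16 L (n = 5), with no overlap, where 8.56% of all genes were called. In the low gainers against HFD, where 20.7% of all genes were called, 2 of 11 were called, both lower: Bmpr2 (19.1 ± 6.18 CPM in HFD and 5.64 ± 1.35 in low gainers), a type II BMP receptor, and Smad4 (105 ± 6.05 and 52.3 ± 8.74), the common SMAD. No gene of this list was called by edgeR at 4 weeks (0 of 13 tested, 2 at unadjusted p under 0.05) or 16 weeks (0 of 11, 3 unadjusted).

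Kitl was uneven among the 4-week HFD libraries. Replicates 13 and 14 held 34.9 and 36.5 CPM, and replicates 3, 4 and 5 held 7.05, 3.72 and 3.98, while the CD libraries held 10.9, 16.9, 28.6, 17.1 and 13.4. The HFD values lay on both sides of the whole CD range, with a log2 fold change of 0.04 (SE 0.572, 95% interval -1.17 to 1.26, edgeR adjusted p = 0.971). In 16 L replicate 19 held 51.4 CPM and the other 4 libraries 13.1 to 17.0, and 4 of the 5 lay above the 16 C range of 8.29 to 13.6, with a log2 fold change of 1.11 (SE 0.551, adjusted p = 0.192). Low gainers held 4.79, 6.66 and 12.3 CPM against 7.11 to 38.3 (median 15.6) in HFD, a log2 fold change of -1.17 (SE 0.524, adjusted p = 0.121).

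**Figure D3:**
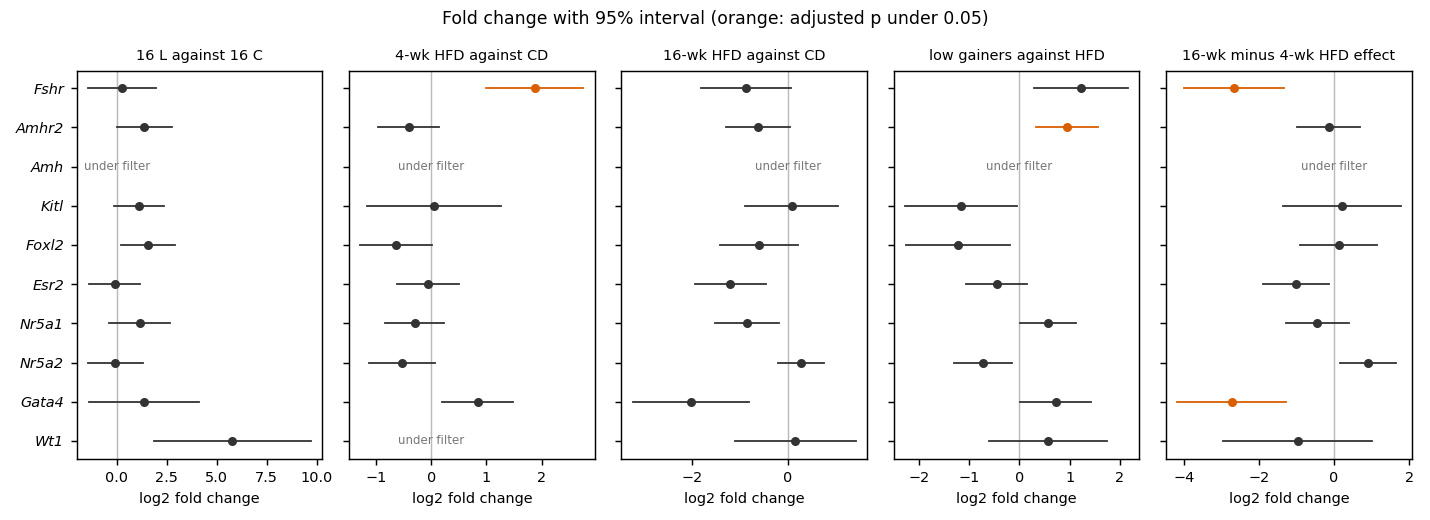
Log2 fold change (point) and 95% interval (line) of each member in 4 comparisons and in the interaction of diet and time, from edgeR. Orange marks adjusted p under 0.05: Fshr at 4 weeks, Amhr2 in low gainers, and Fshr and Gata4 in the interaction. Genes under the count filter have no interval.

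Gata4, which works with NR5A1 and FOG cofactors in granulosa cells, showed a split among the 16-week CD libraries. Replicates 1 and 2 held 112 and 97.8 CPM, and the other 4 held 9.96 to 13.3 CPM. The 7 HFD libraries ran from 4.60 to 17.8 CPM (median 10.2). The HFD libraries thus covered the range of 4 CD libraries and lay far below 2. The log2 fold change was -2.03 (SE 0.580, 95% interval -3.25 to -0.808), which missed the threshold (edgeR adjusted p = 0.0664), and without both replicates it was -0.13 (adjusted p = 0.889). edgeR called 0 of 9 members at 16 weeks (3 at unadjusted p under 0.05: Gata4, Esr2 and Nr5a1), against 0.0276% of 10861 genes (25.3% unadjusted), and DESeq2 called 2 (Gata4 and Esr2) and 6.43% of all genes.

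At 4 weeks Gata4 was high in HFD, at 67.4, 54.4, 81.5, 82.7 and 84.6 CPM, against 60.8, 27.9, 14.9, 57.6 and 41.3 in CD. Of these, 4 HFD libraries lay above every CD library and replicate 14 lay within the CD range. A log2 fold change of 0.85 (SE 0.303, 95% interval 0.203 to 1.49) missed the threshold (edgeR adjusted p = 0.109). The interaction for Gata4 was -2.72 (SE 0.707, 95% interval -4.17 to -1.27, edgeR adjusted p = 0.0343). It was -1.01 (adjusted p = 0.208) without both 16-week CD replicates 1 and 2, and its call was lost in 11 of 23 fits without 1 library (16-week CD replicate 1 or 2, 16-week HFD replicate 12, 14 or 15, 4-week CD replicate 1, 2 or 8, 4-week HFD replicate 3, 4 or 5), at adjusted p of 0.0538 to 0.0782. The low gainers held 12.5, 15.4 and 27.6 CPM, with a log2 fold change of 0.72 (SE 0.336, adjusted p = 0.132) from HFD. Against 16-week CD it was -1.26 (SE 0.856, adjusted p = 0.611), and without replicates 1 and 2 of that group it was 0.58. In 16 L Gata4 was at 0 reads in replicate 18 and at 92.1 CPM in replicate 19, with the other 3 at 17.2 to 18.9 CPM, all above 16 C (8.34 to 13.6). The log2 fold change was 1.38 (SE 1.23, adjusted p = 0.456).

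Esr2, the main oestrogen receptor of granulosa cells, and Nr5a1, a regulator of steroidogenic genes, had the same 2 high 16-week CD libraries. Esr2 held 63.6 and 66.8 CPM in replicates 1 and 2 and 15.7 to 25.4 in the other 4, and HFD ran from 10.3 to 21.5 (median 15.5). Nr5a1 held 78.9 and 70.2 CPM in those replicates and 24.8 to 34.1 in the others, and HFD ran from 16.0 to 39.3 (median 22.6). In both genes 4 of 7 HFD libraries lay below every CD library. The log2 fold change of HFD over CD was -1.20 for Esr2 (SE 0.352, edgeR adjusted p = 0.0700) and -0.85 for Nr5a1 (SE 0.319, adjusted p = 0.118), and without replicates 1 and 2 these were -0.35 (adjusted p = 0.653) and -0.16 (adjusted p = 0.831).

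Of 5 theca markers, Ptch1, the hedgehog receptor, moved with this split. It held 49.9 and 40.2 RPM in 16-week CD replicates 1 and 2, 0.886 to 3.82 in the other 4 CD libraries and 0 to 4.32 in HFD. The other 4, the defining theca genes Cyp17a1 and Insl3 and the hedgehog pathway genes Gli1 and Hhip, were at 0 reads in all 13 libraries. In bulk RNA, fewer cells of a type and less RNA per cell cannot be told apart.

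Elsewhere the Esr2 ranges overlapped. At 4 weeks its means were 28.5 ± 8.31 CPM in CD and 27.3 ± 6.84 in HFD (n = 5 each), with a log2 fold change of -0.06 (95% interval -0.625 to 0.504, edgeR adjusted p = 0.910). Low gainers held 10.1, 16.3 and 9.38 CPM, 2 of them below all 7 HFD libraries, with a log2 fold change of -0.45 (SE 0.288, adjusted p = 0.271). In 16 L the 5 libraries held 11.3, 59.6, 29.2, 9.66 and 30.4 CPM around the 16 C range of 25.5 to 37.7, with a log2 fold change of -0.11 (SE 0.569, adjusted p = 0.917). Of 9 oestrogen receptor partners, 1 of 8 tested was called at 4 weeks, where 4.26% of all genes were called. It was Greb1, an oestrogen target and cofactor, at 957 ± 254 CPM in CD and 476 ± 87.0 in HFD. The leptin comparison, which called 8.56% of all genes, called 1 of 8 higher and 1 lower. The lower one was Ncoa1, a coactivator (273 ± 64.3 in 16 C, 48.7 ± 37.5 in 16 L). In low gainers against HFD, where 20.7% of all genes were called, 2 of 8 were called. These were Nrip1 and Ncoa2, both lower (-1.25 and -0.76 on the log2 scale). In the interaction, which called 3.66% of all genes, 1 of 8 was called, the corepressor Ncor1 (1.32).

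Nr5a1 and Nr5a2 encode related receptors that read the same DNA site. At 4 weeks Nr5a1 held 68.5 to 124 CPM in CD and 42.9 to 88.8 in HFD, and Nr5a2 34.7 to 101 in CD and 33.2 to 63.7 in HFD. Both overlapped, with log2 fold changes of -0.30 (SE 0.251, edgeR adjusted p = 0.471) and -0.53 (SE 0.278, adjusted p = 0.248). At 16 weeks Nr5a2 ran from 48.6 to 70.8 CPM (median 56.9) in CD and from 39.0 to 114 (median 69.0) in HFD, with a log2 fold change of 0.28 (SE 0.227, adjusted p = 0.427). In low gainers Nr5a2 held 57.6, 35.7 and 38.8 CPM and Nr5a1 34.7, 27.8 and 50.8, with log2 fold changes from HFD of -0.73 (SE 0.275, adjusted p = 0.0663) and 0.57 (SE 0.267, adjusted p = 0.131).

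The log2 ratio of Nr5a2 to Nr5a1 set these opposite signs side by side within each library. It was 0.56 ± 0.560 in 16-week CD (n = 6), 1.51 ± 0.635 in 16-week HFD (n = 7) and 0.23 ± 0.569 in low gainers (n = 3). HFD had the highest mean, with overlap with both other groups. The 16-week CD replicates 1 and 2 had the lowest ratios of their group, at -0.16 and -0.07. The rest of that group ran from 0.61 to 1.22. The ratio was not tested with both of these replicates left out. The difference was 0.95 from CD (exact two-sided permutation p = 0.0186) and -1.27 from HFD to low gainers (exact permutation p = 0.0250), each 0.0833 after adjustment over 10 ratio tests. These comparisons share the HFD libraries. In 16 L Nr5a1 held 5.13 CPM in replicate 18 and 62.4 to 75.5 in the other 4, which lay above 16 C (20.0 to 32.8), with a log2 fold change of 1.14 (SE 0.690, edgeR adjusted p = 0.276), or 1.36 without replicate 18 (adjusted p = 0.00246, 41.8% of all genes called). Nr5a2 overlapped there, at 8.55 to 86.2 CPM in 16 L and 33.6 to 72.3 in 16 C.

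Wt1, a zinc finger factor of granulosa progenitors that is also made by mesothelium and stroma, gave the largest fold change of the 9 members tested after leptin. It held 0, 1.90 and 0.386 CPM in 16 C (0, 16 and 1 reads) and 244, 5.00, 13.5, 23.5 and 5.07 CPM in 16 L (1429, 50, 31, 34 and 15 reads). All 5 16 L libraries lay above all 16 C libraries, and replicate 18 lay about an order of magnitude above the next. With edgeR the log2 fold change was 5.78 (SE 1.76, 95% interval 1.84 to 9.72), which missed the threshold (edgeR adjusted p = 0.0660). edgeR called 0 of 9 members tested in this comparison (3 at unadjusted p under 0.05), against 8.56% of 11723 genes (32.4% unadjusted), and limma-voom with sample quality weights called 4 members and 63.8% of all genes. Non-overlapping groups with 16 L higher, seen for Wt1 and Foxl2, occurred in 12.2% of genes. Without replicate 18 the log2 fold change of Wt1 was 3.28 (adjusted p = 0.0176), and without replicates 18, 20 and 21 it was 2.26 (adjusted p = 0.112), in fits that called 41.8% and 24.9% of all genes.

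The oviduct epithelium markers had a similar order in these libraries, at 29788, 2242 and 1446 RPM in replicates 18, 21 and 20, 389 in replicate 23 and 11.0 in replicate 19, with Wt1 highest in replicates 18, 21 and 20. All 6 markers had reads in 16 L, and Foxj1 and Wfdc2 were at 0 in 16 C. Red blood cell markers had the same order as Wt1, at 14513, 7605, 146, 94.1 and 16.4 RPM in replicates 18, 21, 20, 23 and 19, and stroma markers summed to 1433 RPM in replicate 18. The part of these cells in the result was not tested. In replicate 19, where the oviduct sum was below every 16 C library (19.6 to 70.6 RPM), Wt1 was 5.00 CPM, above all 16 C libraries. In the diet groups Wt1 stayed at 0 to 6.66 CPM. At 4 weeks it was under the count filter, with 0 to 6 reads in CD and 4 to 31 in HFD (difference of mean log2(RPM + 1) 0.654, exact permutation p = 0.0635). The CD libraries at 0 reads, replicates 2 and 8, had the lowest depth of that comparison, and the part of depth was not tested. At 16 weeks Wt1 held 0 to 4.54 CPM (median 2.95) in CD and 0.539 to 4.67 (median 3.34) in HFD (edgeR adjusted p = 0.885).

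**Figure D4:**
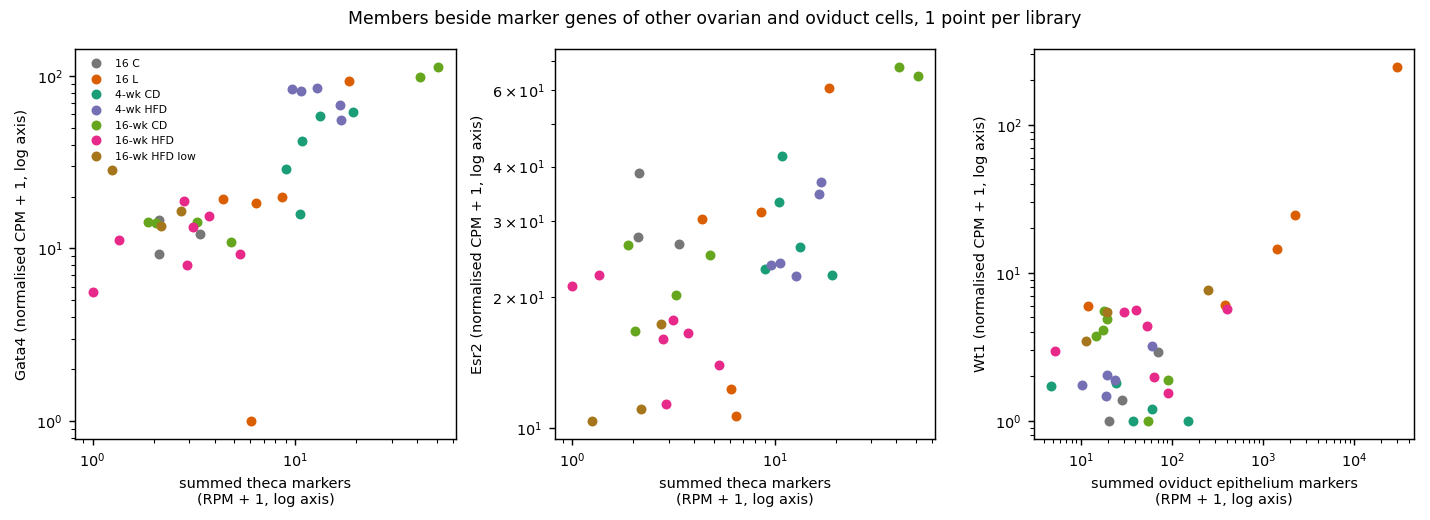
Gata4 and Esr2 against the summed theca markers, and Wt1 against the summed oviduct epithelium markers, with 1 point per library and 1 added to each value on log axes. The 2 green points at the upper right of the Gata4 and Esr2 panels are 16-week CD replicates 1 and 2 (theca sums of 49.9 and 40.2 RPM, all from Ptch1), and the uppermost Wt1 point is 16 L replicate 18.

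Foxl2, which maintains granulosa against Sertoli identity, held 7.19, 7.60, 18.3, 27.6 and 20.6 CPM in 16 L and 3.03, 6.52 and 6.18 in 16 C. All 5 16 L libraries lay above the controls, replicates 18 and 19 only just. With edgeR the log2 fold change was 1.56 (SE 0.599, 95% interval 0.224 to 2.90), which missed the threshold (edgeR adjusted p = 0.112), and it was 1.63 without replicate 18 (adjusted p = 0.0300, 41.8% of all genes called). Scaling mattered here: over all genes the median change was 0.27 (log2) with the normalisation used and 1.08 when scaled by total reads, and relative to the former median Foxl2 was 1.29 higher, Amhr2 1.11 and Wt1 5.51.

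Among the diet groups Foxl2 had its lowest mean in the low gainers. At 4 weeks it held 8.07, 11.7, 19.7, 16.3 and 9.43 CPM in CD and 10.0, 5.59, 9.77, 8.97 and 7.53 in HFD, with a log2 fold change of -0.64 (SE 0.307, edgeR adjusted p = 0.214). At 16 weeks it ran from 1.81 to 11.3 CPM (median 6.83) in CD and from 3.00 to 6.47 (median 4.60) in HFD. The 3 low gainers had 20, 2 and 8 reads, or 3.30, 0.605 and 2.09 CPM, 2 of them below all HFD libraries. Their log2 fold change was -1.22 from HFD (SE 0.493, adjusted p = 0.0840) and -1.81 from CD (SE 0.658, adjusted p = 0.362).

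Among 11 other granulosa transcription factors, 1 of 9 tested was called at 4 weeks, where 4.26% of all genes were called. It was Zfpm1, a FOG cofactor of GATA proteins (7.68 ± 3.28 CPM in CD and 2.44 ± 0.772 in HFD). In low gainers against HFD, where 20.7% of all genes were called, 2 of 8 tested were called, both lower. Zfpm2, the other FOG cofactor, was 1 of them (7.93 ± 3.89 CPM in HFD and 2.72 ± 0.534 in low gainers). Of 7 Sertoli genes, 1 or 2 passed the count filter in each comparison and 0 were called by edgeR.

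Levels of some members moved together over the 34 libraries. Between members the highest rank correlations were 0.84 for Nr5a1 and Gata4, 0.78 for Amhr2 and Nr5a1 and 0.69 for Foxl2 and Amhr2. The lowest were -0.29 for Esr2 and Wt1 and -0.27 for Fshr with Kitl and with Foxl2. These values, from normalised levels, are a description over libraries that share groups, depth and scaling. Among 13235 other genes, those most like Nr5a1 were Pgd (0.95), Plod3 and Cpsf1 (0.95 each), and those most like Foxl2 were Rpsa (0.93), Crtc3 and Nfic (0.92 each). Fshr was most like Hnrnpa1 (0.86), Cog6 and Scpep1 (0.85 each), Gata4 like Pcdhga11, Pskh1 and Rnf10 (0.92 each), and Amhr2 like Maz (0.90), Abca7 and Smarcd3 (0.89 each). Esr2 was most like Neu3 (0.79), Nr5a2 like Tmem229a (0.71), Wt1 like Cftr (0.72), a chloride channel of epithelia, and Amh like Zfp385a (0.86).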

How the data were processed

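The authors deposited 1 table of raw read counts per gene for the 34 CC libraries, made with a Smart-seq2 oligo-dT protocol and Nextera XT, without molecular identifiers. The 95% intervals from edgeR include the spread between libraries of a group. The limit of up to 3 counts at 0 reads covers counting error only. Per the submitters' processing notes reads passed Trim Galore 0.4.2 and HISAT2 2.0.5 on GRCm38. The counting program, annotation and strand setting are not given in the sources used here. Groups came from the labels. The members, gene lists, tests and the 3 most similar genes by rank correlation named per member were chosen with earlier results of these data known, and no list is independent support. Results for some other genes are not reported here. Comparisons used the libraries of their own groups and edgeR 4.0.16 (R 4.3.3): filterByExpr, TMM scaling, a robust quasi-likelihood F-test and Benjamini-Hochberg adjustment over all genes tested, called at adjusted p under 0.05. Members under the filter had a two-sided exact permutation test of log2(RPM + 1), and the 2 count ratios an exact permutation test. The 72 same-group pairs of libraries held 0 identical pairs. Exon lengths came from GENCODE M21. Alternatives were DESeq2 1.42.0, limma-voom with quality weights (limma 3.58.1), other scalings and filters, 1 fit of all 34 libraries, a replicate block and leaving out libraries, of which leaving out 16-week CD replicates 1 and 2, or 16 L replicates 18, 20 and 21 (over 1000 RPM of oviduct markers), was chosen after seeing the data. The fitting code was tested on simulated data. Replicate numbers shared by 7 pairs of DIO libraries were checked for pairing, and their deviations correlated at -0.27 to 0.13. Pairs with different numbers were not set beside them, so this check cannot exclude a shared source. The fits reported left the samples unpaired.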

Additional observations from a re-analysis of the deposited data

Results flagged for a closer look

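In 50 checks of 1 gene in 1 group, 3 gave a library far from its group, where chance flags about 1 in 20. Nr5a1 in 16 L replicate 18 held 5.13 CPM, far below the next lowest library of its group, at 62.4 CPM, and Gata4 had 0 reads in the same library, whose oviduct, red blood cell and stroma marker sums were the highest of 16 L. Kitl in 16 L replicate 19 held 51.4 CPM against 17.0 in the next highest. Amh in 4-week CD replicate 1 held 1.09 CPM from 8 reads, with 0 or 1 read in the other 4 libraries.

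The HFD effect of Fshr and of Gata4 differed between 4 and 16 weeks, by -2.67 and -2.72 on the log2 scale (edgeR adjusted p = 0.0287 and 0.0343). For Fshr, HFD held a higher mean than CD at 4 weeks (21.9 and 5.54 CPM) and a lower one at 16 weeks (7.13 and 13.5 CPM). For Gata4 the means were 74.1 and 40.5 CPM at 4 weeks and 10.7 and 43.2 CPM at 16 weeks, the last with an SD of 48.0 over 6 libraries. With 16-week CD replicates 1 and 2 left out, the interactions were -2.52 (adjusted p = 0.0661) and -1.01 (adjusted p = 0.208).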

How the results depend on the processing

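No result with a call passed every alternative. Percentages here are the share of all genes tested that the same fit called. Members called numbered 4 with limma-voom (63.8%), 4 with scaling by total counts (34.4%), 3 in a joint fit of all 34 libraries (33.1%) and 3 after removal of 16 L replicates 18, 20 and 21 (24.9%) in the leptin comparison (0 in the fit reported, 8.56%). At 4 weeks they numbered 4 with limma-voom (34.6%), 0 with at least 10 counts in every library, where Fshr was removed (5.16%), and 0 in the fit of all libraries (0.521%), with 1 reported (4.26%). At 16 weeks they numbered 2 with DESeq2 (6.43%), 3 with scaling by total counts (15.2%) and 2 in the fit of all libraries (9.5%), with 0 reported (0.0276%). For low gainers against HFD they numbered 3 with limma-voom (29.3%), 2 with scaling by total counts (19.4%) and 0 in the fit of all libraries (3.68%), with 1 reported (20.7%). For the interaction they numbered 3 with DESeq2 (Fshr, Amh and Gata4, 5.96%), 3 with limma-voom (Fshr, Gata4 and Kitl, 18.7%), 1 without a filter (1.55%), 0 with at least 10 counts in every library (6.08%), where 5 members were tested, Fshr and Gata4 not among them, 1 in the fit of all libraries (1.19%), 0 without 16-week CD replicates 1 and 2 (0.725%) and 0 with the replicate number as a block (2 reported). The block left 10 of 12235 genes called in place of 448, and it is given only here. Whether a shared replicate number marks a shared source was not settled. No paired analysis was possible for the other comparisons because their groups share no replicate numbers. RLE scaling kept every count.

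With 1 library left out, members called ranged from 0 to 4 after leptin (4 without 16 L replicate 18, where 41.8% of all genes were called), 0 to 2 at 4 weeks, 0 to 3 at 16 weeks (3 without CD replicate 9, 20.5%), 0 to 3 for low gainers against HFD, 0 to 0 against CD and 0 to 3 for the interaction. The difference in the log2 ratio of Nr5a2 to Nr5a1 between 16-week HFD and CD ranged from 0.80 to 1.11, past the adjusted threshold in 1 of 13 fits.

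Directions that turned belonged to members not called in the fits reported. Scaling by total counts gave log2 fold changes of 0.77 (Esr2) and 0.87 (Nr5a2) after leptin, -0.10 (Kitl) at 4 weeks, -0.10 (Nr5a2), -0.27 (Wt1) and -0.33 (Kitl) at 16 weeks and -0.21 (Kitl) and -0.27 (Foxl2) in the interaction, where all genes shifted by medians of 1.08, -0.13, -0.40 and -0.39. limma-voom gave -0.83 (Fshr) and 0.47 (Nr5a2) after leptin, -1.45 (Kitl) and 0.038 (Nr5a1) at 4 weeks and 0.020 (Nr5a1) for low gainers against CD. The filter of 10 counts gave 0.052 (Esr2) and 0.087 (Nr5a2) after leptin and -0.026 (Kitl) at 16 weeks. Without 16-week CD replicates 1 and 2 the interaction was 0.10 (Nr5a1) and 0.19 (Amhr2), and low gainers against CD 0.41 (Nr5a1) and 0.58 (Gata4). Without 16 L replicates 18, 20 and 21 Esr2 was 0.57. The block gave -0.97 (Kitl) and 0.16 (Amhr2). With 1 library left out, ranges that crossed 0 were -0.58 to 0.12 (Esr2) and -0.42 to 0.42 (Nr5a2) after leptin, -0.19 to 0.13 (Esr2) and -0.43 to 0.30 (Kitl) at 4 weeks, -0.061 to 0.44 (Wt1) and -0.29 to 0.50 (Kitl) at 16 weeks, -0.40 to 0.026 (Nr5a1) for low gainers against CD, and -0.066 to 0.28 (Foxl2), -0.30 to 0.011 (Amhr2) and -0.15 to 0.66 (Kitl) in the interaction. The cause was not tested. Depth limits Amh and Wt1 most, since 0 reads in a library allows up to 3 counts by counting error.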
